A study of Homo sapiens with 6 samples.

Results

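The 10 genes described here belong to the BCL2 family, which governs the mitochondrial pathway of apoptosis. They were chosen by name from the deposited gene tables, and all 10 were found among 57861 usable genes. They comprise the pro-survival genes MCL1, BCL2L1 and BCL2, the effectors BAX and BAK1, and the BH3-only genes BCL2L11, BID, BBC3, PMAIP1 and BIK. Their mRNA levels were followed in MOLP-8 cells, a line established from human multiple myeloma, with LIN28B targeted by CRISPR or left intact.

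In this family the effectors BAX and BAK1 open pores in the outer mitochondrial membrane, through which cytochrome c escapes and activates caspases. Pro-survival members bind and restrain the effectors. BH3-only members, each carrying a single short helix of the family, either occupy the pro-survival proteins or activate the effectors directly. Plasma cells and many myelomas depend on MCL1, and the proteins differ in partners: NOXA, the product of PMAIP1, binds MCL1 selectively, whereas PUMA, the product of BBC3, and BIM, the product of BCL2L11, bind every major pro-survival protein.

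LIN28B KO cells carried the lentiCRISPRv2 vector with a guide against LIN28B, and control cells the same vector with a scrambled guide. Each group had 3 libraries, and both groups had been selected with puromycin at 1 µg/mL, so that the vector and the drug are shared by the controls. The sample titles write KD where the condition label writes KO, and the labels do not say whether the KO cells were a clone or a mixed population. Separate cultures are not named either, and the p-values therefore rest on library-to-library spread that could be technical.

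Levels are in FPKM, fragments per kilobase of transcript scaled to library size, and comparisons used log2(FPKM + 0.5). Fragment equivalents estimated from the deposited bounds numbered 4810582 to 5599741 per LIN28B KO library and 6313751 to 8372795 per control library. LIN28B itself averaged 7.47 ± 1.42 FPKM in LIN28B KO cells and 24.4 ± 1.07 FPKM in control cells (SD, n = 3 each), a log2 difference of -1.66 (SE 0.17, limma adjusted p = 0.0207). Leaving out any 1 library except LIN28B KO library 3 lost that call (adjusted p of 0.0675 to 0.185), with LIN28B lower in 3 of 3 KO libraries. All 11 plasma cell markers, among them SDC1, TNFRSF17 and IRF4, reached 1 FPKM in every library, with sums of 11195 to 17063 FPKM in LIN28B KO and 14261 to 15887 FPKM in control. Of 23 markers of B, T and NK, myeloid, erythroid and stromal cells 0 did so, with sums of 5.56 to 17.4 FPKM in LIN28B KO and 4.75 to 6.84 FPKM in control. MS4A1, CD3D, NKG7 and HBA1 were listed at 0 throughout.

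In LIN28B KO library 3 abundant mRNAs were lower than in the other 5 libraries. That library also listed more genes at 1 FPKM or more, 17676 against 15356 to 15932 in the other 5. For the 6300 protein-coding genes averaging 10 to 100 FPKM in control its median log2 ratio to control was -0.47, against -0.05 and -0.06 in LIN28B KO libraries 1 and 2. For genes over 100 FPKM it was -0.63, and for those at 1 to 10 FPKM -0.22. Since most members fall in these classes, log2 differences are given with that library, and again from a fit of the other 5 libraries on protein-coding genes, called the 5-library fit. Values after cyclic loess scaling, which removes a trend with level between libraries, are given for the members whose direction or overlap they bear on. LIN28B differed by -1.50 on the log2 scale in the 5-library fit (SE 0.09, adjusted p = 0.00749), a call lost when any 1 of the 5 libraries was left out (adjusted p of 0.0521 to 0.0865). The median log2 difference of all tested genes was -0.13 with 6 libraries, 0.00 after cyclic loess and -0.04 in the 5-library fit.

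LIN28B blocks the maturation of the let-7 microRNAs, which recognise mRNAs through bases 2 to 8, the seed. The 9 mature let-7 and miR-98 sequences in RefSeq (GRCh38.p14) share 1 seed, GAGGUAG. Of these, 3 are shown with the seed in capitals, since its complement is what was looked for in the members:
hsa-let-7a-5p: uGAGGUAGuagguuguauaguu
hsa-let-7g-5p: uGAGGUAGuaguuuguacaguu
hsa-miR-98-5p: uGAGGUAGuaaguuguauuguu
The longest 3′ UTR of each member was searched on the transcript strand for CTACCTC, the complement of the seed, and for TACCTCA, the complement of bases 2 to 7 followed by A; the forms overlap by 6 bases in an 8-base match, which counted once. BCL2L1 held an 8-base match at bases 945 to 952 of a 1497-base UTR, and PMAIP1 a match of the second form at bases 1370 to 1376 of a 1553-base UTR. Both are shown with the matching bases in capitals:
BCL2L1: cagggtcttccCTACCTCAggcaggaa
PMAIP1: agatggaaaatTACCTCAcatctgtt
The other 8 members had no such letters in the UTR searched. A match was present in 2 of 10 members (20%), and in 15.7% of 19133 protein-coding genes with a 3′ UTR and 18% of the 11190 of them tested in the 5-library fit. Among UTRs within 1.25-fold of the same length, 16.4% and 16.7% held a match for the lengths of BCL2L1 and PMAIP1, against 42.4% at the 5279 bases of BCL2, which held none. The sequences are those of GENCODE 29, used without coordinates because that annotation is on GRCh38 and the deposited tables are on GRCh37.

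No member passed the test. In bulk RNA, fewer cells expressing a gene and less of its RNA per cell cannot be told apart, and no protein was measured. With 6 libraries, 0 of 10 members had an adjusted p under 0.05 in limma, against 0.0949% of 15803 genes tested, and 1 of 10, PMAIP1, had an unadjusted p under 0.05, against 13.7% of all genes. In the 5-library fit 0 of 10 members were called, against 4.09% of 11308 genes, and 2 of 10, PMAIP1 and BBC3, had an unadjusted p under 0.05, against 22.8%. After cyclic loess 0 of 10 members were called in either fit, against 0.702% of genes with 6 libraries and 2.25% in the 5-library fit. The 463 calls behind the 4.09% fell to 0 when any 1 further library was left out. The groups did not overlap for PMAIP1, BID, BAK1 and BIK, each lower in LIN28B KO, against 20.1% of all tested genes. Without LIN28B KO library 3 those 4 members were again lower without overlap, against 26.4% of genes, and BBC3 was higher without overlap, against 15% of genes. The median log2 fold change of the 10 members was -0.16 with 6 libraries and -0.11 in the 5-library fit, set beside -0.13 and -0.04 for all genes tested. The 6-library fit tested genes of all types and the 5-library fit protein-coding genes only, so these backgrounds are unlike sets.

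The members covered a wide range of abundance, and the upper 6 stood in the same order in both groups. Expressed per length, MCL1 was highest, averaging 245 ± 50.4 FPKM in LIN28B KO and 269.6 ± 8.18 FPKM in control, followed by BAX at 196 ± 38.5 and 216 ± 8.16 FPKM (SD, n = 3 each). BCL2L11, BID and BAK1 came next, at 21.5 to 29.2 FPKM on average in LIN28B KO and 27.2 to 34.6 FPKM in control, then BCL2L1 at 13.6 and 14.3 FPKM. In LIN28B KO cells the order below it was BBC3, BCL2, PMAIP1 and BIK, whereas in control cells it was PMAIP1, BBC3, BCL2 and BIK. Neighbours whose ranges overlapped in LIN28B KO were MCL1 and BAX, BCL2L11 and BID, BID and BAK1, BBC3 and BCL2, and BCL2 and PMAIP1. In control they were BCL2L11 and BID, PMAIP1 and BBC3, and BBC3 and BCL2. Ranked among protein-coding genes within each library, MCL1 stood at the 98.4th to 98.6th percentile and BIK at the 44.2nd to 46.9th.

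**Figure D1:**
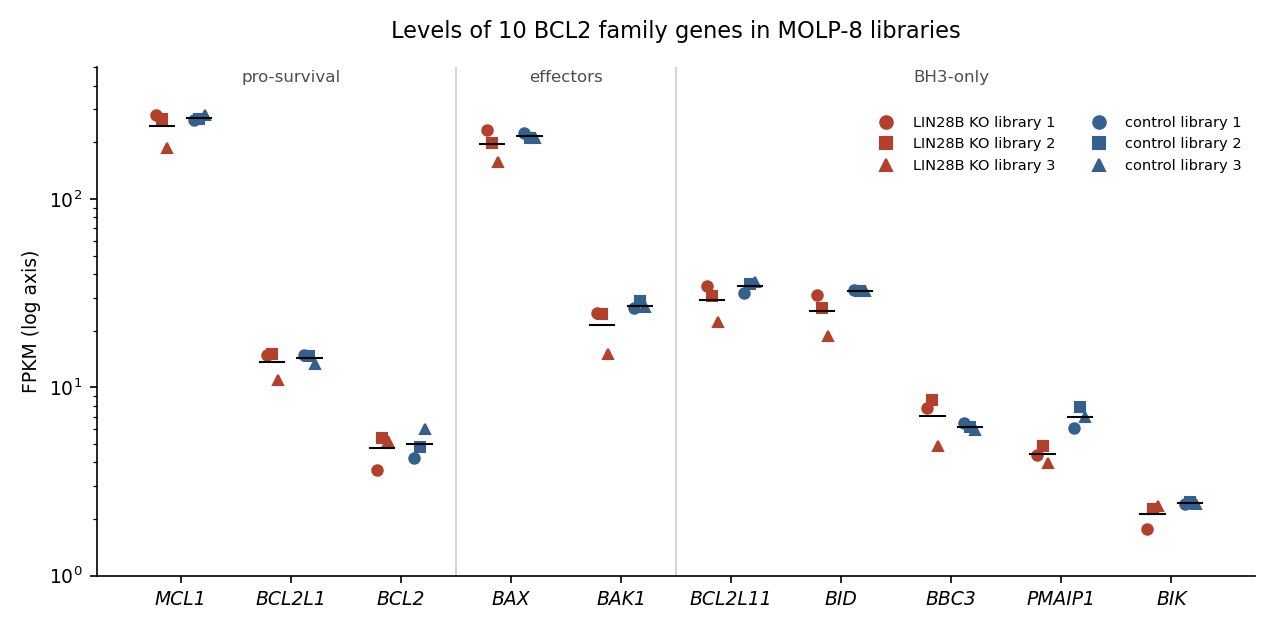
FPKM of the 10 members in each library on a log axis, with LIN28B KO libraries in red left of control libraries in blue and a black bar at each group mean. MCL1 and BAX lie at 157 FPKM or more in all 6 libraries and BIK at 1.77 to 2.46 FPKM, and the triangle of LIN28B KO library 3 is the lowest LIN28B KO point for every member but BCL2 and BIK.

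Among the pro-survival genes, MCL1 (ENSG00000143384, chromosome 1, 150547032 to 150552066 of GRCh37) encodes a short-lived protein on which plasma cells rely. It stood at 280.2, 267 and 187 FPKM in LIN28B KO libraries 1 to 3, against 264, 266 and 279 FPKM in control libraries 1 to 3. Libraries 1 and 2 of the KO lay within or just above the control range, and library 3 lay below it. MCL1 had a log2 fold change of -0.16 with 6 libraries (95% interval -0.58 to 0.26, adjusted p = 0.668) and 0.02 in the 5-library fit (95% interval -0.10 to 0.14, adjusted p = 0.830). After cyclic loess of all 6 libraries the MCL1 value turned to 0.10 (adjusted p = 0.301), and all 3 KO libraries then lay above the controls.

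BCL2L1 (ENSG00000171552, chromosome 20, 30252255 to 30311792), which carries the 8-base match shown above, encodes BCL-XL and the shorter BCL-XS; the tables give 1 value for the whole gene and do not separate them. An antisense gene overlaps this locus, and whether counting used strand is not stated. Its level was 14.9, 15.0 and 10.9 FPKM in LIN28B KO, against 14.9, 14.6 and 13.4 FPKM in control. The groups overlapped, with library 3 of the KO alone below the controls. BCL2L1 had a log2 fold change of -0.08 with 6 libraries (95% interval -0.46 to 0.30, adjusted p = 0.818) and 0.07 in the 5-library fit (95% interval -0.15 to 0.28, adjusted p = 0.711).

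BCL2 (ENSG00000171791, chromosome 18, 60790579 to 60987361), the founding member and the target of venetoclax, was the lowest of the pro-survival genes. It stood at 3.62, 5.40 and 5.20 FPKM in LIN28B KO, against 4.22, 4.80 and 6.02 FPKM in control. The groups overlapped, and the spread within each exceeded the difference of their means, 4.74 ± 0.976 FPKM in LIN28B KO and 5.01 ± 0.918 FPKM in control (SD, n = 3 each). The deposited bounds were wide for this gene, running from 3.90 to 6.51 FPKM in LIN28B KO library 3, where the value rested on 63 fragment equivalents. BCL2 had a log2 fold change of -0.08 with 6 libraries (95% interval -0.57 to 0.41, adjusted p = 0.865) and -0.15 in the 5-library fit (95% interval -0.64 to 0.35, adjusted p = 0.720).

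The balance of the pro-survival genes can be read within a library, where a factor common to all genes cancels, although the trend with level in LIN28B KO library 3 does not. MCL1 supplied 93.8%, 92.9% and 92.1% of the summed FPKM of MCL1, BCL2L1 and BCL2 in LIN28B KO libraries 1 to 3, against 93.2%, 93.2% and 93.5% in control libraries. BCL2L1 supplied 4.99% to 5.37% in LIN28B KO and 4.48% to 5.28% in control, and BCL2 1.21% to 2.56% and 1.49% to 2.02%. MCL1 was thus the dominant transcript in both groups, 17.2 to 18.8 times as abundant per length as BCL2L1 in LIN28B KO and 17.7 to 20.9 times in control.

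The 3 ratios overlapped between the groups. The log2 ratio of BCL2 to MCL1 averaged -5.55 ± 0.53 in LIN28B KO and -5.63 ± 0.19 in control, that of BCL2L1 to MCL1 -4.11 ± 0.07 and -4.19 ± 0.13, and that of BCL2 to BCL2L1 -1.43 ± 0.45 and -1.44 ± 0.32 (SD, n = 3 each). Exact two-sided permutation tests of 3 against 3 gave p = 0.9, 0.5 and 1 for the 3 ratios and 1 for each after Benjamini-Hochberg adjustment over them, in a design whose smallest p is 0.1. The widest range was that of MCL1 over BCL2, at 77.4, 49.5 and 36.0 in LIN28B KO libraries 1 to 3 and 62.5, 55.5 and 46.4 in control libraries 1 to 3. Without LIN28B KO library 3 the difference for BCL2 to MCL1 turned to -0.17 and that for BCL2 to BCL2L1 to -0.21, so that no direction can be given for either.

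**Figure D2:**
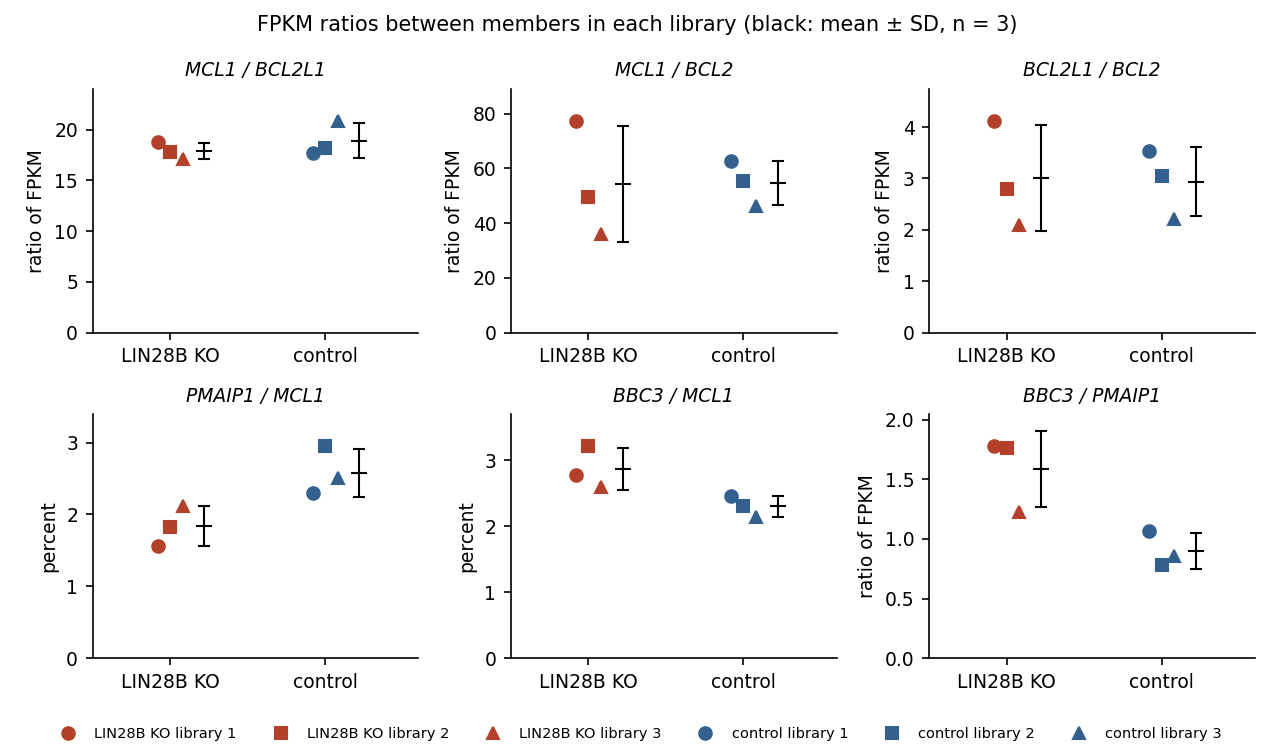
FPKM ratios between members in each library, LIN28B KO in red left of control in blue, with the mean and SD of 3 libraries in black. The upper panels show that the pro-survival ratios overlap between the groups, and the lower panels that PMAIP1 as a percent of MCL1 lies lower in LIN28B KO, whereas BBC3 as a percent of MCL1 and BBC3 over PMAIP1 lie higher. None of the lower panels shows an overlap as deposited, but BBC3 as a percent of MCL1 overlaps after cyclic loess.

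Of the effectors, BAX (ENSG00000087088, chromosome 19, 49458072 to 49465055), a classical p53 target, stood at 233, 198 and 157 FPKM in LIN28B KO, against 225, 210.4 and 212 FPKM in control. LIN28B KO libraries 1 and 2 lay on either side of the controls and library 3 below them. The log2 fold change of BAX was -0.16 with 6 libraries (adjusted p = 0.654) and -0.01 in the 5-library fit (95% interval -0.19 to 0.18, adjusted p = 0.974). With 6 libraries it turned to 0.10 after cyclic loess.

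BAK1 (ENSG00000030110, chromosome 6, 33540329 to 33548019) encodes the effector that resides on mitochondria and is held by MCL1 and BCL-XL. Its level was 25.0, 24.5 and 15.1 FPKM in LIN28B KO, against 26.2, 28.6 and 26.6 FPKM in control. Every KO library lay below every control, although the deposited bounds of KO library 1 (23.1 to 26.8 FPKM) and control library 1 (24.6 to 27.9 FPKM) overlapped. The log2 fold change of BAK1 was -0.36 with 6 libraries (95% interval -0.85 to 0.13, adjusted p = 0.437) and -0.13 in the 5-library fit (95% interval -0.31 to 0.05, adjusted p = 0.366). BAK1 has processed pseudogenes that could share its reads.

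PMAIP1 (ENSG00000141682, chromosome 18, 57567180 to 57571538), which encodes the MCL1-selective protein NOXA and carries the other let-7 match, was the member with the smallest p in both fits. It stood at 4.38, 4.87 and 3.97 FPKM in LIN28B KO, against 6.06, 7.85 and 6.98 FPKM in control. All 3 KO libraries were lower than all 3 controls, and the highest KO value was 4.87 FPKM with deposited bounds of 3.82 to 5.91 FPKM, against 5.18 to 6.93 FPKM for the lowest control. The group means were 4.41 ± 0.448 FPKM in LIN28B KO and 6.96 ± 0.895 FPKM in control (SD, n = 3 each), so that KO cells held 63.3% of the control level, or 66.4% without library 3. Each value rested on 87 to 192 fragment equivalents.

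On the log2 scale the difference for PMAIP1 was -0.60 with 6 libraries (SE 0.16, 95% interval -0.98 to -0.23, unadjusted p = 0.00667, limma adjusted p = 0.274). In the 5-library fit it was -0.54 (SE 0.14, 95% interval -0.87 to -0.20, unadjusted p = 0.00682, adjusted p = 0.0855). PMAIP1 therefore missed the threshold across all genes, and its direction was the same in every setting tried, with log2 values of -0.69 to -0.52 over those of the 6 libraries and -0.63 to -0.45 over those of the 5. After cyclic loess of all 6 libraries the KO libraries lay at -0.62, -0.48 and -0.47 on the log2 scale relative to the control mean, against -0.18 to 0.17 in the controls.

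BBC3 (ENSG00000105327, chromosome 19, 47724081 to 47736023) encodes PUMA, like NOXA a product of a p53-responsive gene. Its values did not follow those of PMAIP1: 7.79, 8.58 and 4.86 FPKM in LIN28B KO, against 6.48, 6.13 and 5.95 FPKM in control. LIN28B KO libraries 1 and 2 were above every control and library 3 below every control. BBC3 had a log2 fold change of 0.14 with 6 libraries (95% interval -0.36 to 0.65, adjusted p = 0.752) and 0.38 in the 5-library fit (SE 0.11, 95% interval 0.12 to 0.63, unadjusted p = 0.0112, adjusted p = 0.106). After cyclic loess of all 6 libraries BBC3 in library 3 stood at -0.03 relative to the control mean, within the controls, and libraries 1 and 2 at 0.31 and 0.44. Without LIN28B KO library 2 the 6-library value was -0.0049, so that no direction holds for BBC3 across these libraries.

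**Figure D3:**
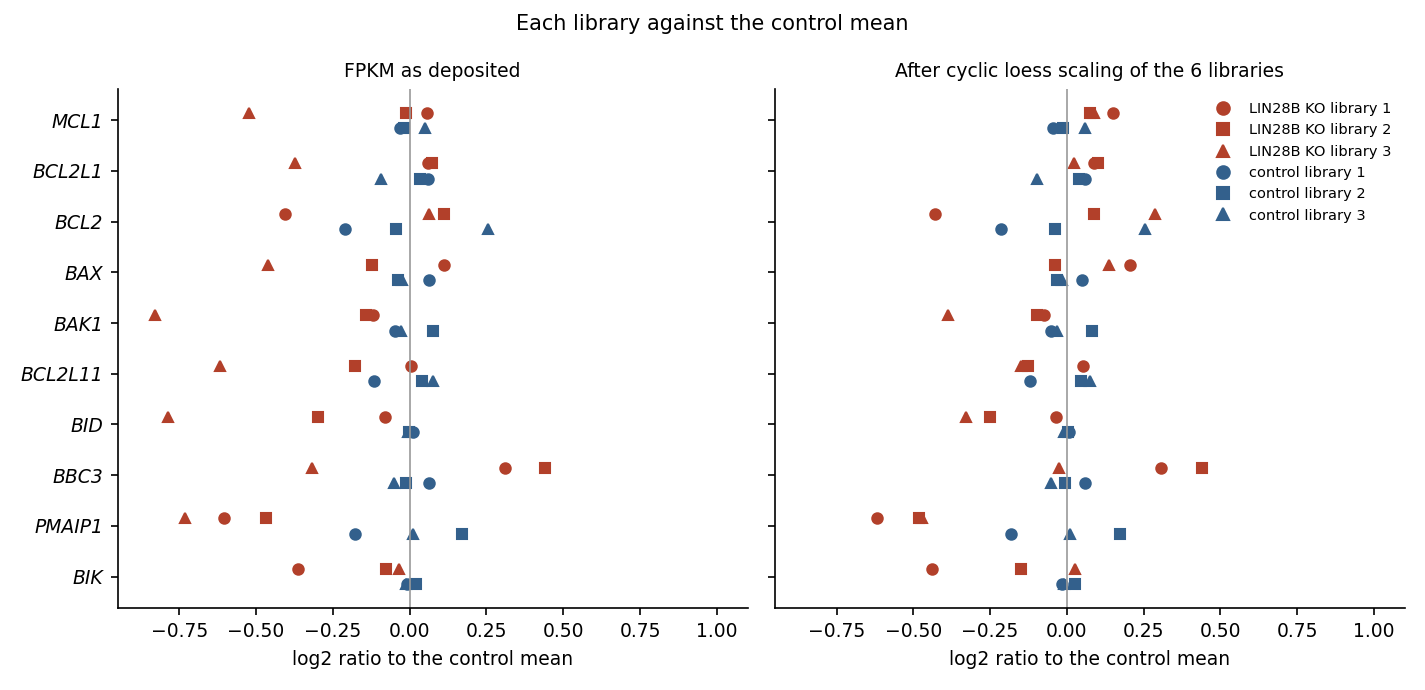
Log2 ratio of each library to the control mean for the 10 members, with FPKM as deposited on the left and after cyclic loess on the right, LIN28B KO in red above control in blue. PMAIP1 keeps all 3 LIN28B KO libraries left of the controls in both panels. The triangle of LIN28B KO library 3 moves right for every member, from -0.73 to -0.47 for PMAIP1 and from -0.52 to 0.09 for MCL1.

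Set against each other within a library, BBC3 and PMAIP1 gave a ratio that did not overlap between the groups. BBC3 over PMAIP1 was 1.78, 1.76 and 1.22 in LIN28B KO and 1.07, 0.782 and 0.853 in control. The nearest values were those of LIN28B KO library 3 and control library 1. In the former BBC3 and PMAIP1 rested on only 148 and 91 fragment equivalents, and in the latter on 251 and 192. How often the ratios of other gene pairs fail to overlap was not examined. PMAIP1 amounted to 1.56%, 1.82% and 2.12% of the MCL1 level in LIN28B KO and to 2.30%, 2.95% and 2.50% in control, while BBC3 amounted to 2.78%, 3.21% and 2.59% in LIN28B KO and to 2.46%, 2.30% and 2.13% in control. After cyclic loess of all 6 libraries, an alternative added after seeing the data, BBC3 amounted to 2.76%, 3.20% and 2.25% of MCL1 in LIN28B KO and to 2.63%, 2.45% and 2.25% in control, so that these groups then overlapped. BBC3 over PMAIP1 and PMAIP1 as a percent of MCL1 did not overlap on that scale. These ratios were chosen after the values had been seen and are given as a description. The sum of the 5 BH3-only genes was 26.6%, 25.3% and 25.7% of the summed pro-survival genes in LIN28B KO, against 28.2%, 29.6% and 28.3% in control, without overlap on either scale. That sum was mostly BCL2L11 and BID, at 34.6 and 30.8 of 79.4 FPKM in LIN28B KO library 1, and the pro-survival sum was mostly MCL1. The sum of BAX and BAK1 was 77.4% to 86.5% of the pro-survival sum in LIN28B KO and 80.1% to 88.9% in control, with overlap.

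BCL2L11 (ENSG00000153094, chromosome 2, 111876955 to 111926024) encodes BIM, a potent activator of BAX and BAK that is spliced into several forms, which the gene value does not separate. It was the highest BH3-only gene, at 34.6, 30.5 and 22.4 FPKM in LIN28B KO, against 31.9, 35.5 and 36.5 FPKM in control. The groups overlapped through LIN28B KO library 1. BCL2L11 had a log2 fold change of -0.26 with 6 libraries (95% interval -0.69 to 0.16, adjusted p = 0.493) and -0.09 in the 5-library fit (95% interval -0.31 to 0.14, adjusted p = 0.631).

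BID (ENSG00000015475, chromosome 22, 18216906 to 18257536) links death receptors to mitochondria once caspase-8 has cleaved it. Its level was 30.8, 26.5 and 18.7 FPKM in LIN28B KO, against 32.9, 32.6 and 32.5 FPKM in control. The control values were close together, and the KO values were lower and spread, on 87 to 416 fragment equivalents. The log2 fold change of BID was -0.39 with 6 libraries (95% interval -0.84 to 0.06, adjusted p = 0.395) and -0.19 in the 5-library fit (95% interval -0.40 to 0.01, adjusted p = 0.246). All 3 KO libraries remained below the controls after cyclic loess, at -0.03, -0.25 and -0.33 on the log2 scale relative to the control mean. The deposited bounds of LIN28B KO library 1, however, ran from 25.5 to 36.2 FPKM, across the whole control range.

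BIK (ENSG00000100290, chromosome 22, 43506754 to 43525718), a BH3-only gene whose protein sits on the endoplasmic reticulum, was the lowest member. It stood at 1.77, 2.27 and 2.36 FPKM in LIN28B KO, against 2.40, 2.46 and 2.40 FPKM in control. The KO values were lower without overlap, yet the 6 values rested on only 28 to 57 fragment equivalents each, and the bounds of LIN28B KO library 3 ran from 1.65 to 3.06 FPKM, across the whole control range. The log2 fold change of BIK was -0.16 with 6 libraries (adjusted p = 0.677) and -0.22 in the 5-library fit (95% interval -0.59 to 0.15, adjusted p = 0.454). After cyclic loess of 6 libraries the groups overlapped.

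The rest of the family was read from a list of 16 genes, of which 10 were abundant enough to be tested. By limma 0 of 10 were called in either fit, against 0.0949% of all genes with 6 libraries and 4.09% in the 5-library fit. In each fit 1 of 10 had an unadjusted p under 0.05, against 13.7% and 22.8% of all genes. BCL2A1, BCL2L10, BCL2L14, BCL2L15, BOK and HRK did not pass the filter of 1 FPKM in 3 libraries, so that MCL1, BCL2L1, BCL2L2 and BCL2 were the pro-survival genes tested. BCL2L12, an atypical member, had the smallest p of the list, at 35.2, 29.9 and 23.4 FPKM in LIN28B KO and 42.8, 41.9 and 43.6 FPKM in control, or -0.39 on the log2 scale in the 5-library fit (SE 0.09, adjusted p = 0.0590) and -0.55 with 6 libraries (adjusted p = 0.298). Its groups did not overlap. BCL2L2, which encodes BCL-W and shares exons with the readthrough model BCL2L2-PABPN1, stood at 10.6, 12.2 and 11.4 FPKM in LIN28B KO and 12.2, 9.92 and 9.42 FPKM in control, a log2 difference of 0.12 in both fits (adjusted p = 0.692 and 0.646). BAD, a BH3-only gene, stood at 30.1, 30.6 and 15.6 FPKM in LIN28B KO and 32.4, 31.4 and 31.8 FPKM in control, where the gap lay in library 3 (log2 difference -0.38 with 6 libraries and -0.07 in the 5-library fit, adjusted p = 0.485 and 0.585). BNIP1 differed by -0.31 on the log2 scale with 6 libraries (adjusted p = 0.396) and by -0.20 in the 5-library fit (adjusted p = 0.313). BNIP3L differed by 0.01 and 0.18 (adjusted p = 0.982 and 0.247), and BECN1 by 0.09 and 0.19 (adjusted p = 0.787 and 0.345), in the same order of fits. The median of the list was -0.06 with 6 libraries and 0.07 in the 5-library fit, beside -0.13 and -0.04 for all genes.

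Downstream of the mitochondria, 22 genes of caspases, the apoptosome and IAP proteins were tested. With 6 libraries 0 passed, 5 had an unadjusted p under 0.05, against 13.7% of all genes, and the median of the 22 was -0.21, beside -0.13 for all genes. In the 5-library fit 1 of 22 fell, CYCS, against 3.02% of all genes called lower. In that fit 5 had an unadjusted p under 0.05, against 22.8% of all genes, and the median was -0.10, beside -0.04. CYCS encodes cytochrome c, which BAX and BAK pores release, and has many processed pseudogenes that could share its reads. It stood at 166, 163 and 106 FPKM in LIN28B KO, against 198, 196 and 209 FPKM in control, or -0.29 on the log2 scale in the 5-library fit (SE 0.05, adjusted p = 0.0378) and -0.50 with 6 libraries (SE 0.20, adjusted p = 0.351). After cyclic loess of those 5 libraries CYCS missed the threshold at -0.20 (adjusted p = 0.103), and its call was lost when any 1 of the 5 libraries was left out (adjusted p of 0.0845 to 0.122). On the same 5 libraries with all gene types kept, not only protein-coding genes, CYCS missed the threshold too (limma adjusted p = 0.0730).

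The other leading genes of that list, taken by their p, were lower in all 3 KO libraries than in all controls but missed the threshold. In the whole list 8 of 22 genes were lower without overlap, against 20.1% of all genes tested with 6 libraries. DIABLO, the antagonist of IAP proteins, stood at 24.3, 33.1 and 22.7 FPKM in LIN28B KO and 36.0, 41.6 and 35.1 FPKM in control (log2 difference -0.50 with 6 libraries and -0.40 in the 5-library fit, adjusted p = 0.320 and 0.163). The IAP gene BIRC5, which encodes survivin and is expressed in dividing cells, stood at 26.5, 27.1 and 16.4 FPKM in LIN28B KO and 33.6, 34.5 and 29.6 FPKM in control (-0.50 and -0.27, adjusted p = 0.364 and 0.136). DFFA, the inhibitor of the apoptotic nuclease, differed by -0.38 with 6 libraries and -0.25 in the 5-library fit (adjusted p = 0.354 and 0.138), and CASP2, an initiator caspase, by -0.32 and -0.23 (adjusted p = 0.363 and 0.154). Without LIN28B KO library 3 the values of CYCS, BIRC5 and DFFA were thus smaller by over 1.5 times.

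Among 24 tested regulators and partners of the family, 0 passed with 6 libraries, where 3 had an unadjusted p under 0.05, against 13.7% of all genes, and 1 rose in the 5-library fit, against 1.08% of all genes called higher. In that fit 9 had an unadjusted p under 0.05, against 22.8% of all genes. Their median was -0.13 with 6 libraries and 0.07 in the 5-library fit, beside -0.13 and -0.04 for all genes. The gene that rose was MDM2, the ubiquitin ligase of p53 and itself a p53 target, at 419, 310.1 and 322 FPKM in LIN28B KO and 211, 225 and 226 FPKM in control. All 3 KO libraries were higher than all controls, by 0.71 on the log2 scale in the 5-library fit (SE 0.12, adjusted p = 0.0337) and by 0.80 after cyclic loess of those libraries (adjusted p = 0.0343). With 6 libraries it was 0.65 (adjusted p = 0.254), and leaving out any 1 of the 5 libraries lost the call (adjusted p of 0.0521 to 0.117). The call also depended on testing protein-coding genes only. On the same 5 libraries with all gene types kept, MDM2 missed the threshold (limma adjusted p = 0.0811). BAX, BBC3 and PMAIP1, the members described above as p53-responsive, stood at 99.9%, 132% and 66.4% of the control mean in LIN28B KO libraries 1 and 2, while MDM2 stood at 165%. Over all 3 KO libraries they stood at 90.8%, 114% and 63.3%, and MDM2 at 159%. Whether these or other members respond to p53 in these cells was not tested.

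The remaining regulators named here missed the threshold. E2F1, a cell cycle factor that can induce BH3-only genes, stood at 10.8, 10.2 and 6.38 FPKM in LIN28B KO and 13.8 to 14.1 FPKM in control (log2 difference -0.62 with 6 libraries and -0.39 in the 5-library fit, adjusted p = 0.314 and 0.0596). DDIT3, a stress factor known as CHOP, stood at 9.80, 8.28 and 5.91 FPKM in LIN28B KO and 6.99, 6.33 and 6.11 FPKM in control (0.26 and 0.45, adjusted p = 0.532 and 0.0943), with LIN28B KO library 3 below the controls, as for BBC3. FOXO3, an activator of BCL2L11 and BBC3, differed by 0.09 with 6 libraries and 0.22 in the 5-library fit (adjusted p = 0.765 and 0.134). MAPK8, the kinase JNK1, differed by 0.33 in both fits (adjusted p = 0.354 and 0.154). VDAC3, a channel of the outer mitochondrial membrane, differed by -0.39 and -0.21 (adjusted p = 0.376 and 0.152). Apart from MAPK8, leaving out LIN28B KO library 3 moved each of these values by over 1.5 times.

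**Figure D4:**
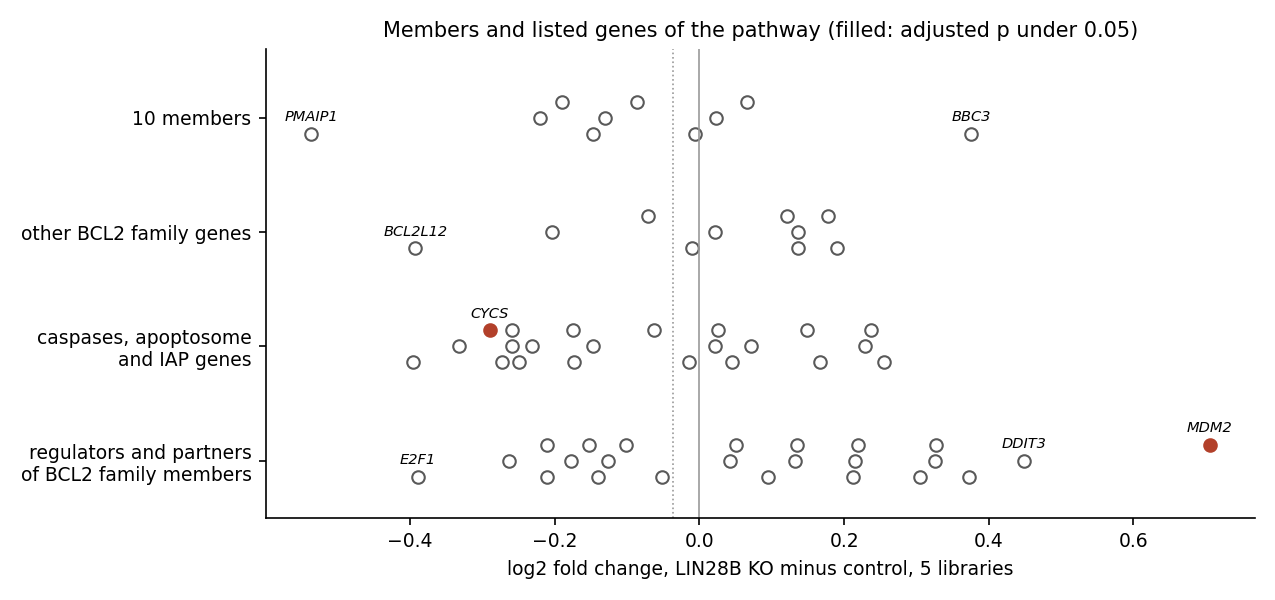
Fold changes on the log2 scale, LIN28B KO over control, in the 5-library fit for the 10 members and the tested genes of 3 lists, filled where the adjusted p was under 0.05, with a dotted line at the median of all genes. Of all points only CYCS (-0.29) and MDM2 (0.71) are filled, and PMAIP1 (-0.54) and BBC3 (0.38) are the outermost members.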

How the data were processed

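RNA sequencing libraries of MOLP-8 cells, 3 of LIN28B KO and 3 of control, were analysed from the authors' gene tables. The submitters' processing notes name TopHat2, cutadapt, HTSeq and GRCh37, without versions or roles. The measure used was the authors' FPKM, listed per the file headers with a lower and an upper bound. Which tool wrote it, on what annotation, is not given in the sources used here. There were 58000 rows per table for 57886 genes; 222 rows of 108 genes were summed per gene, and 25 genes with a failed estimate were left out. Loci are the deposited ones with 1-based starts.

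Limma 3.58.1, in R 4.3.3, was fitted to log2(FPKM + 0.5) without covariates and with a trend in the variance, on genes of at least 1 FPKM in at least 3 libraries, with Benjamini-Hochberg adjustment over all tested genes and a threshold of 0.05. The 5-library fit used genes that GENCODE 29 lists as protein-coding. Intervals are moderated 95% intervals. Fold changes on this scale understate those of low genes.

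The upper bound was taken to lie 2 SDs above the estimate. Fragment equivalents are (2 FPKM / distance to that bound) squared, which was whole within 0.01 in all 6 libraries for 1238 genes of up to 50 fragments. They are estimates that leave out spread between libraries and entered no test, and fragments without molecular tags need not be independent. They did not always follow FPKM within a gene, so the bounds need not reflect counting error alone. For BCL2 they were 208 at 3.62 FPKM in LIN28B KO library 1 and 65 at 5.40 FPKM in LIN28B KO library 2.

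The members, the lists and the exclusion of LIN28B KO library 3 were chosen with earlier results of these data known. Exact permutation tests went through every split of the libraries, and SciPy 1.17.1 gave the Benjamini-Hochberg adjustment of their p-values. Similar 3′ UTR lengths are those within 1.25-fold. Named genes are the 10 members, LIN28B and up to 4 genes per list by p in each fit. On simulated data with 200 changed genes, 0% of log2 changes of 0.5 and 46% of changes of 1 were recovered with 6 libraries and 15803 genes, and 30% and 68% in the 5-library fit with 11308 genes. False calls numbered 8 and 5. The simulated noise was independent between libraries, with the same SD per gene in both groups. With 6 libraries that SD was taken with LIN28B KO library 3 included, so its shift entered the noise of every simulated library. The simulation lacked the trend with level of LIN28B KO library 3, so the recovered shares need not hold for these data. Alternatives were other pseudocounts, no filter, quantile and cyclic loess scaling, a replicate block and leaving out each library.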

Additional observations from a re-analysis of the deposited data

How the results depend on the processing

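The count of called members was 0 in every setting run for either fit. The count of all called genes depended strongly on the setting. With 6 libraries it was 15, and it was 6 without a filter, 28 with quantile scaling, 111 with cyclic loess and 4 to 64 when 1 library was left out. The 64 calls came without LIN28B KO library 3 on genes of all types, whereas the 5-library fit tested protein-coding genes only. In the 5-library fit the count was 463, and it was 24 without a filter, 247 with quantile scaling, 254 with cyclic loess, 0 with the replicate block and 0 whichever library was left out. Causes were not tested.

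LIN28B stayed lower in every setting. With 6 libraries its log2 fold change of -1.66 missed the threshold without a filter and with the replicate block (-1.66 in both, adjusted p = 0.142 and 0.0604), and the leave-one-out values were -1.75 to -1.50. In the 5-library fit, where it was -1.50, the replicate block gave -1.47 (adjusted p = 0.0610) and leaving out 1 library -1.53 to -1.47. With 6 libraries the deviations of same-numbered libraries from their group means correlated at -0.02, 0.04 and -0.03. These values did not show a pairing by replicate number. They cannot exclude one, since the deviations within a group are not independent.

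Of the members' alternative values 11 changed sign and 109 did not with 6 libraries, and 7 did and 103 did not in the 5-library fit. With quantile scaling and cyclic loess of 6 libraries these were MCL1 (0.00085 and 0.10), BCL2L1 (0.017 and 0.070) and BAX (0.052 and 0.10), and in the 5-library fit BAX (0.10 and 0.088). Leave-one-out ranges that crossed 0 with 6 libraries were those of BCL2 (-0.18 to 0.087), MCL1 (-0.27 to 0.022), BCL2L1 (-0.16 to 0.066), BBC3 (-0.0049 to 0.38) and BNIP3L (-0.074 to 0.18), and in the 5-library fit those of BCL2 (-0.41 to 0.11), MCL1 (-0.011 to 0.056), BCL2L11 (-0.18 to 0.0029) and BAX (-0.12 to 0.11). PMAIP1, BID, BAK1 and BIK kept their sign in every setting of both fits.

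The differences in log2 ratio were 0.08 for BCL2 to MCL1 (-0.073 with quantile scaling, -0.12 with cyclic loess, -0.17 to 0.36 leaving out 1 library), 0.08 for BCL2L1 to MCL1 (-0.034 with cyclic loess, 0.0080 to 0.13) and 0.0029 for BCL2 to BCL2L1 (-0.0026 without a pseudocount, -0.089 with quantile scaling, -0.088 with cyclic loess, -0.21 to 0.24). MDM2 lost its call in the 5-library fit without a filter (0.71, adjusted p = 0.0893) and with the replicate block (0.72, adjusted p = 0.0869), and CYCS in every setting except other pseudocounts.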
